A study of Homo sapiens with 5 samples.

Results

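EGFR-high nuclei were 300 of the 6557 nuclei (4.58%, exact 95% binomial interval 4.08 to 5.11) in the 80% portion of a mixture of 5 lung cancer cell lines. They were chosen by their own RNA counts, namely by a high share of UMIs (unique molecular identifiers, counted RNA molecules) on EGFR and on the long non-coding RNA gene AC090578.1. Cells of A549, H1975, H2228, H838 and HCC827, all human lung adenocarcinoma lines grown in RPMI medium, were pooled in equal numbers, and nuclei were captured with the 10× Multiome protocol, which reads RNA and open chromatin (ATAC, cuts of a transposase in accessible DNA) under the same barcode. After capture the droplets were split, 20% of them into one portion and 80% into the other, with 1 library for RNA and 1 for ATAC made from each. No treatment, time point or genotype other than the lines themselves was compared. Nuclei were not assigned to lines here, and since each portion is 1 library of each kind, no difference carries a test or a p-value. Intervals given below are exact 95% intervals and cover counting error only.

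EGFR is a receptor tyrosine kinase of the ERBB family at the cell surface. On binding of a ligand such as EGF, amphiregulin or epiregulin it pairs with itself or with another ERBB receptor and signals through adaptors to the RAS and MAPK cascade, to PI3K and AKT and to STAT3. Ubiquitin ligases, ERRFI1, LRIG and Sprouty proteins and DUSP phosphatases restrain this signal. In lung adenocarcinoma EGFR is one of the best known oncogenes, and among these lines H1975 and HCC827 are known to carry a mutated EGFR.

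For the rule, 6 pairs of genes were used as panels. The share of a nucleus's UMIs on a panel was divided by the 98th percentile of that share over all nuclei of the 80% portion, which was 0.805% of UMIs for EGFR and AC090578.1. A nucleus was EGFR-high where this value was its highest, at least 0.2 and at least 2 times the value of the next panel. The other panels took 1633 nuclei (MEG3 and MEG8), 1197 nuclei (LINC02055 and AC069277.1), 1328 nuclei (ALDH1A1 and TM4SF4), 405 nuclei (AL356804.1 and AL683807.1) and 297 nuclei (TAGLN and MGP), and 1397 nuclei met no panel's rule. With the same scales, 49 of the 1286 nuclei of the 20% portion (3.81%, interval 2.83 to 5.01) were EGFR-high.

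The median EGFR panel value of the 300 nuclei was 0.910, their highest was 4.55, and their value was a median of 31.4 times that of the next panel. At the edge of the rule, the lowest value inside was 0.2002, from 11 EGFR UMIs among 8689, and the highest value outside was 0.1999, from 5 EGFR UMIs among 8079. By the ratio to the next panel, the nucleus just inside had 2.004 and the one just outside 1.93. A further 108 nuclei had EGFR as their clear first panel but a value under 0.2, and 20 passed 0.2 but not the ratio. Of the members, 75 had a value of 0 for every other panel.

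**Figure D1:**
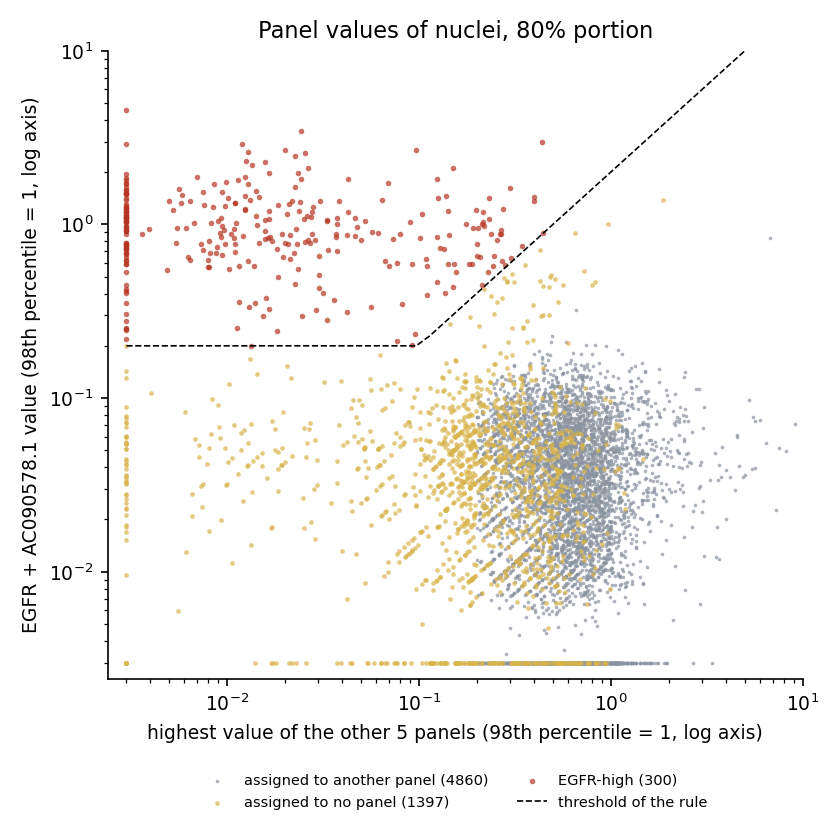
Each point is a nucleus of the 80% portion, placed by the highest of its 5 other panel values (x axis, log) and by its EGFR and AC090578.1 value (y axis, log), with values under 0.003 drawn at 0.003 and the threshold of the rule as a dashed line. The 300 EGFR-high nuclei (red) lie around a value of 1 (median 0.910), and the 20 nuclei that missed the ratio lie to the right of the slanted part of the line.

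The matrices held 95455518 RNA UMIs and 63920767 ATAC counts for the 80% portion, and 14346346 UMIs and 12850543 ATAC counts for the 20% portion. EGFR-high nuclei took 4297427 UMIs and 3447571 ATAC counts in the 80% portion, and 583734 UMIs and 641340 ATAC counts in the 20% portion. Their median depth was 11938.5 UMIs and 9939 ATAC counts per nucleus, within the range of the other panel groups, whose medians ran from 9110 to 16266 UMIs and from 6581 to 11540 ATAC counts. When UMIs were drawn down to 5000 in each nucleus (8 of the 300 had fewer), the members had a median of 2585.5 detected genes against 2632 to 2721 in the other panel groups (4443.5 in members without thinning). The 13 mitochondrial genes took a median of 1.22% of a member's UMIs (quartiles 0.913 and 1.73) against medians of 0.445% to 0.936% elsewhere, and in the 20% portion 1.16% against 0.449% to 0.876%. The part of this higher mitochondrial share in the RNA results was not tested. Scrublet called 13 of the 300 (4.33%) doublets, and all were kept. The portions shared 159 barcodes, of which 6 were among the 300 members of the 80% portion and 5 were EGFR-high in both.

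EGFR itself was at 7692 CPM (counts-per-million of the UMIs summed over a group, interval 7609 to 7775) in the members, from 33055 UMIs. It was at 482 CPM in the MEG3 nuclei, 432 in the AL356804.1 nuclei, 352 in the TAGLN nuclei, 234 in the ALDH1A1 nuclei and 83.8 in the LINC02055 nuclei, and at 473 CPM in the nuclei of no panel. The members were thus 15.9 times above the next group (interval 15.6 to 16.3). In the 20% portion EGFR was at 8824 CPM, against 99.3 to 499.9 CPM in the other panel groups. EGFR had a UMI in 100% of members and in 83.2% of the nuclei of the other panels. AC090578.1, a non-coding gene on chromosome 8, was at 285 CPM against at most 2.79 CPM, and had a UMI in 92.3% of members against 1.69% of the others. Since these counts chose the members, the levels of EGFR and AC090578.1 describe the group and support nothing, and the same holds for every RNA level below, in the 20% portion too, where the members were chosen by the same rule on their own RNA.

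Genes next to EGFR on chromosome 7 stood out along with it. The files place EGFR's start sites (ENSG00000146648) from 55019017 to 55152337 on chromosome 7 of GRCh38. Of 39 genes with a start within 2 Mb of the first EGFR start, 21 had no UMI in members and 14 reached 20 CPM in at least 1 panel group. Of the 13 of these other than EGFR, 11 were at least 2 times above the highest other group, while the same rule was met by 199 of 10233 genes (1.94%) overall and by 187 of 10219 (1.83%) without this neighbourhood. A feature that reached 20 CPM in the members alone is above every other group by construction, and EGFR-AS1, ZNF713 and PHKG1 were such genes. Of the 10 with another group at 20 CPM, 8 were higher, against 107 of 10058 genes (1.06%) overall.

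SEC61G, a subunit of the channel that moves proteins into the endoplasmic reticulum, starts 260 kb before EGFR and was at 4412 CPM against 396 to 505 CPM in the other panel groups (8.73 times the highest, interval 8.49 to 8.98). EGFR-AS1, antisense to EGFR, was at 24.4 CPM against at most 1.94 CPM, with a UMI in 25.7% of members. LANCL2, a LanC-like protein, was at 586 CPM against 27.96 to 47.1 CPM (12.4 times, 10.8 to 14.3), and VOPP1, at 497 kb after the EGFR start, was at 1438 CPM against 68.7 to 124 CPM (11.6 times, 10.8 to 12.4). These 4 genes lay between 260 kb before and 497 kb after the EGFR start, and their ratios were all above 8. EGFR and its antisense gene overlap, and without knowledge of the strand used in counting (not given in the sources used here) their reads cannot be told apart.

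A second stretch from 868 to 1087 kb after the EGFR start had smaller ratios. There, ZNF713 was at 40.02 CPM against at most 14.5 CPM. MRPS17, of the mitochondrial ribosome, was at 284 CPM against at most 97.8 CPM, and PSPH, the last enzyme of serine synthesis, was at 116 CPM against at most 39.4 CPM. CCT6A, a subunit of the TRiC chaperonin, was at 1818 CPM against 405 to 715 CPM, SUMF2 at 268 CPM against at most 102 CPM, and PHKG1 at 33.5 CPM against at most 14.3 CPM. CHCHD2, a mitochondrial protein, was at 2281 CPM against at most 1107 CPM (2.06 times). NIPSNAP2 in the same stretch, at 124 CPM against 68.1 CPM, stayed under 2 times. On the other side, LINC01446 at 1239 kb before EGFR was at 65.6 CPM, next to 59.6 CPM in the LINC02055 nuclei. In the 20% portion SEC61G (4024 against 483 CPM), LANCL2 (570 against 48.8 CPM) and VOPP1 (1559 against 124 CPM) were again far above every other group, and CHCHD2 was at 1920 against 959 CPM.

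The ATAC counts, which the rule did not use, showed the same stretch. Peaks within 500 kb of the EGFR start held 49957 counts, or 1.449% of all ATAC counts of the members. This was 14490 CPM, here of ATAC counts, against 1142 in the nuclei of no panel, 960 in the AL356804.1 nuclei, 874 in the MEG3 nuclei, 785 in the TAGLN nuclei, 506 in the ALDH1A1 nuclei and 431 in the LINC02055 nuclei. The members were 15.1 times above the highest panel group (interval 14.5 to 15.7, on counts divided by 2 because most values in the files are even), and in the 20% portion 15.6 times (14.2 to 17.1), at 14772 CPM. Counting each peak at most once per nucleus, the ratio was 6.74. In bulk or pooled ATAC counts, more copies of a region and more accessible DNA per copy cannot be told apart.

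By distance, the 250 kb bins from 500 kb before to 750 kb after the EGFR start had ratios to the highest other group between 12.4 and 19.5. The next 2 bins, up to 1250 kb, had ratios of 2.54 and 2.35, close to those of the RNA of the genes in them. The bin from 1250 to 1500 kb was at 14.5 CPM against 51.8 CPM and so lower than in another group. Before 500 kb upstream, the nearest bin held 20.6 CPM in 7 peaks against 9.74 CPM. The 20% portion, with its own peaks, gave ratios of 10.5 to 21.0 in the inner bins and of 2.72 and 2.44 in the next 2. Of 94 peaks within 2 Mb that reached 20 CPM in a panel group, 87 were at least 2 times above the highest other group and none was lower, but 63 of the 94 reached 20 CPM through the members alone. Of the 31 with another group at 20 CPM, 24 were higher. Over all peaks 588 of 23823 (2.47%) were higher and 474 (1.99%) were at most 0.5 times the lowest other group, and with another group at 20 CPM 118 of 22565 (0.523%) were higher. The plot of RNA and ATAC by distance sets both readouts side by side.

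**Figure D2:**
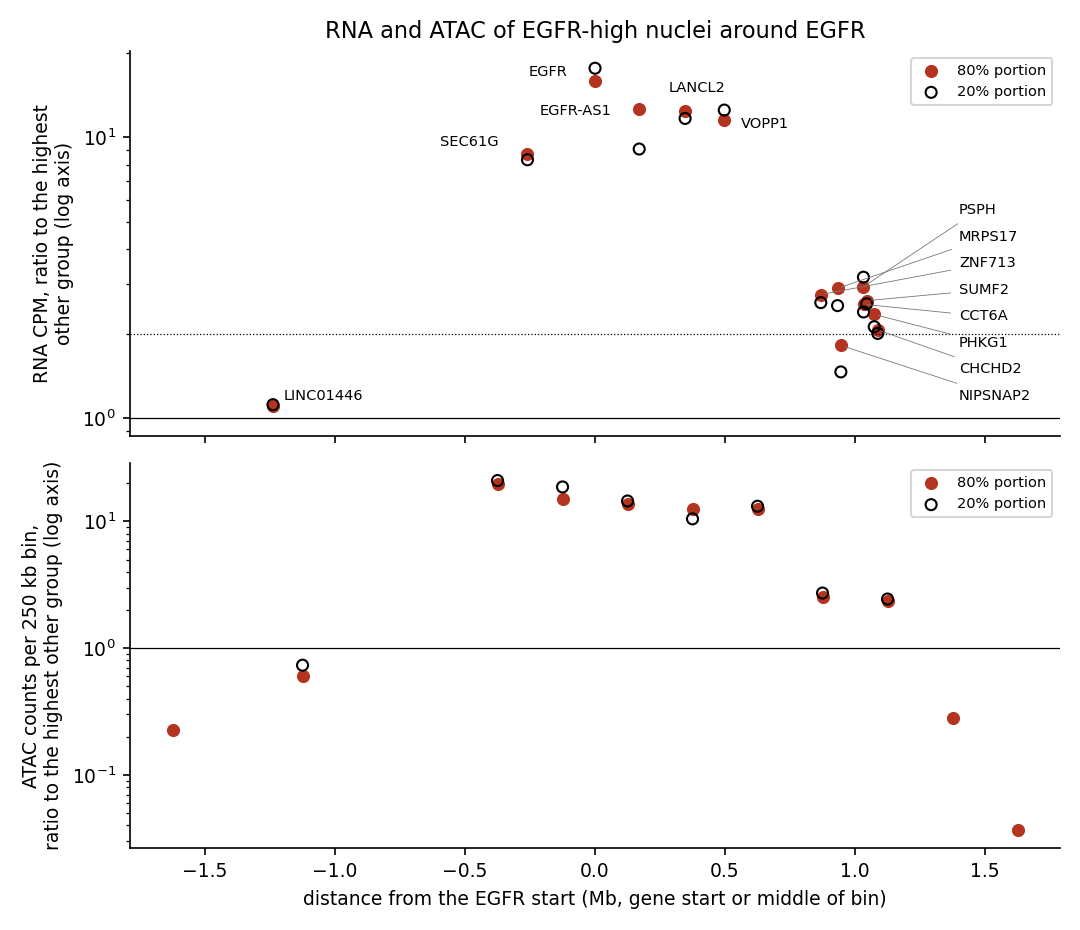
The upper panel shows, for the 14 genes near EGFR that reached 20 CPM, the RNA level of EGFR-high nuclei over that of the highest other panel group (log axis, dotted line at 2) against the distance of the gene start from the EGFR start in Mb, and the lower panel shows the same ratio for ATAC counts in bins of 250 kb where the highest other group had at least 20 CPM. In both portions (filled, 80%; open, 20%) the RNA ratios lie above 8 from SEC61G to VOPP1, where the ATAC ratios lie above 10, both lie between 1 and 4 around 1 Mb, and the outermost ATAC bins lie under 1.

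The peak at the EGFR start, chr7:55018616-55019491, was at 465 CPM against at most 33.1 CPM (14.0 times) and had a count in 81.7% of members against 11.4% of the nuclei of the other panels. Over the gene, the peak with the most counts was chr7:55132489-55133382 in an intron, at 1512 CPM against 24.1 to 106 CPM, with a count in 96.0% of members. The highest ratio of all peaks was at chr7:54967169-54968066, between genes and 51.4 kb before the EGFR start, at 326 CPM against 1.99 to 6.84 CPM, with a count in 61.0% of members and 1.67% of the others. Another EGFR intron peak, chr7:55130537-55131416, was at 302 CPM against at most 9.16 CPM. All 10 peaks with the highest ratio had reached 20 CPM in the members alone and so were above every other group by construction. Of these 10, 8 were on chromosome 7 within 2 Mb of EGFR, as were 94 of all 23823 peaks tested. Those not yet given were chr7:54961374-54962106 (89.3 against 2.36 CPM), chr7:54879594-54880432 (141 against 4.56 CPM) and chr7:54877529-54878319 (44.96 against 1.95 CPM) between genes before EGFR. The others were chr7:55078746-55079627 in an EGFR intron (160 against 5.91 CPM), chr7:55180754-55181588 over an exon of EGFR or EGFR-AS1 (21.8 against 0.779 CPM) and chr7:55369374-55370102 in a LANCL2 intron (29.3 against 1.36 CPM). So the ratio to the highest other group was not the same at every peak of the gene, and ran from 4.30 to 33.0 among the 20 peaks over EGFR with the most counts.

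The sequences of 3 of these regions are shown, namely the start of EGFR, the peak with the highest ratio and the peak over EGFR with the most counts. They stand as examples among the 133 peaks within 500 kb. The sequences are on the plus strand of GRCh38, the first from the RefSeq promoter table (GRCh38.p14, chr7:55018767-55019016, the 250 bases before the start) and the others the central 300 bases of a peak (chr7:54967468-54967767 and chr7:55132786-55133085), none of which overlaps an exon in GENCODE v44. Capitals mark matches, on either strand, to GGGCGG (Sp factors), TGACTCA (AP-1), TGTTTAC (forkhead factors), AACCGGTT (grainyhead-like factors) or GGAATG (TEAD factors).
EGFR promoter: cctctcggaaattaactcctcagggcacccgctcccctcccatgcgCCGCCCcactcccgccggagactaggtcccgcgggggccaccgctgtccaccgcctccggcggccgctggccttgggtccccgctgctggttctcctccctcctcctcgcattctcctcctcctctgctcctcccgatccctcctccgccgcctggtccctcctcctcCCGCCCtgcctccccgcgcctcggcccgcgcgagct
Peak before EGFR: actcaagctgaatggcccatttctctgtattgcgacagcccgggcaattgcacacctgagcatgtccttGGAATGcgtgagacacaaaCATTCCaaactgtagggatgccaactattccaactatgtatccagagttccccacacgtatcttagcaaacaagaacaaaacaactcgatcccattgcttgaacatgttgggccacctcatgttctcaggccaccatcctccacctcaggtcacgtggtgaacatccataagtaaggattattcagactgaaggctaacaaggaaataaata
Peak in EGFR intron: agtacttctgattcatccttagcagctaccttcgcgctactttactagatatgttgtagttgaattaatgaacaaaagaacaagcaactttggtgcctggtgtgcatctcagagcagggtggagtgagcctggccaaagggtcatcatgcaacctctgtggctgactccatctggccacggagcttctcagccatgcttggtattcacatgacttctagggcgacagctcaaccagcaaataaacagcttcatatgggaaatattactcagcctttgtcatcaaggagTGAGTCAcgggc

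The EGFR promoter window has 73.6% G and C and 2 matches to GGGCGG, which 42.6% of all RefSeq promoter windows of this length hold. The window before EGFR has 2 matches to GGAATG, a motif in 18.6% of the central windows of all peaks tested, and the intron window has 1 match to TGACTCA, found in 24.3% of them. Such matches describe the letters and are no evidence of binding.

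Nucleus by nucleus, the ATAC window set the members apart from nearly all other nuclei, although the rule had used RNA alone. Among nuclei with at least 1000 ATAC counts, the window within 500 kb of EGFR took 0.545% to 2.48% of a member's counts, with a median of 1.47%. The nuclei of the other panels had a median of 0.0586%. All 290 members were above 0.5% (100%, interval 98.7 to 100), against 7 of 4761 nuclei of the other panels (0.147%, 0.0591 to 0.303) and 38 of 1350 nuclei of no panel (2.81%). In the 20% portion 47 of 48 members were above 0.5%, against 1 of 886 and 5 of 284. The exception in the 20% portion had 0.237%. The limit of 0.5% was chosen after the summed counts were seen.

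**Figure D3:**
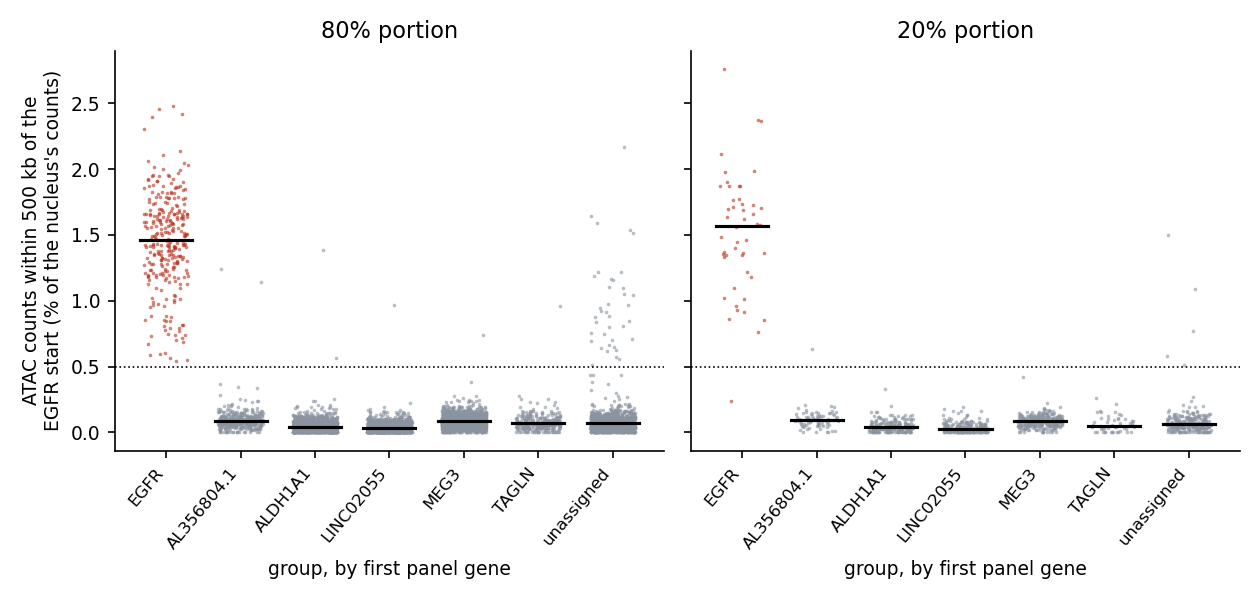
Each point is a nucleus with at least 1000 ATAC counts, grouped by the first gene of its panel (EGFR-high in red), the y axis is the percent of its ATAC counts within 500 kb of the EGFR start, bars are medians and the dotted line is at 0.5%. EGFR-high nuclei lie around 1.47% in the 80% portion and 1.57% in the 20% portion, while the other groups lie near 0 except for single nuclei.

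EGFR ranged from 1266 to 36372 CPM per nucleus, with quartiles of 5001 and 9817 and a median of 6986. Beyond counting error the coefficient of variation of EGFR was 44.6%, against 33.9% for SEC61G, 35.5% for VOPP1, 23.2% for the ATAC window and 12.1% for the ATAC counts on the rest of chromosome 7. In the 20% portion it was 46.9% for EGFR and 30.2% for the window, but 48.6% for SEC61G and 47.1% for VOPP1, both above EGFR. Members with more EGFR RNA had more ATAC counts in the window, with a Spearman rho of 0.478 over 300 nuclei and of 0.453 over the 49 of the 20% portion. The nuclei of a portion share a library, so this is a description with no p. EGFR against the rest of chromosome 7 in ATAC gave a rho of 0.03 (0.10 in the 20% portion), and the RNA of the neighbours of EGFR differed in this. EGFR against SEC61G gave -0.13 in the 80% portion and 0.00 in the 20% portion, against LANCL2 0.18 and 0.10, against VOPP1 0.25 and 0.38, and against CCT6A 0.01 and 0.34.

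In 4 groups of 75 members ordered by EGFR, EGFR was at 3634, 6088, 8289 and 13595 CPM. The ATAC window was at 12197, 13845, 14950 and 16966 CPM in the same order. SEC61G stayed between 4310 and 4507 CPM, VOPP1 went from 1131 to 1629 CPM, and the ATAC counts on the rest of chromosome 7 stayed between 51682 and 55079 CPM. The doublet calls were in the lower groups, 8 in the first and 5 in the second, whereas in the 20% portion each group held 1. Over 4 such groups of 12 or 13 members in the 20% portion, the window was at 11596, 13793, 15489 and 17508 CPM. There SEC61G, level in the 80% portion, was at 3412, 3956, 4177 and 4473 CPM in the same order, and the rest of chromosome 7 was at 48704, 50832, 51884 and 53201 CPM, so neither was level in the 20% portion.

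**Figure D4:**
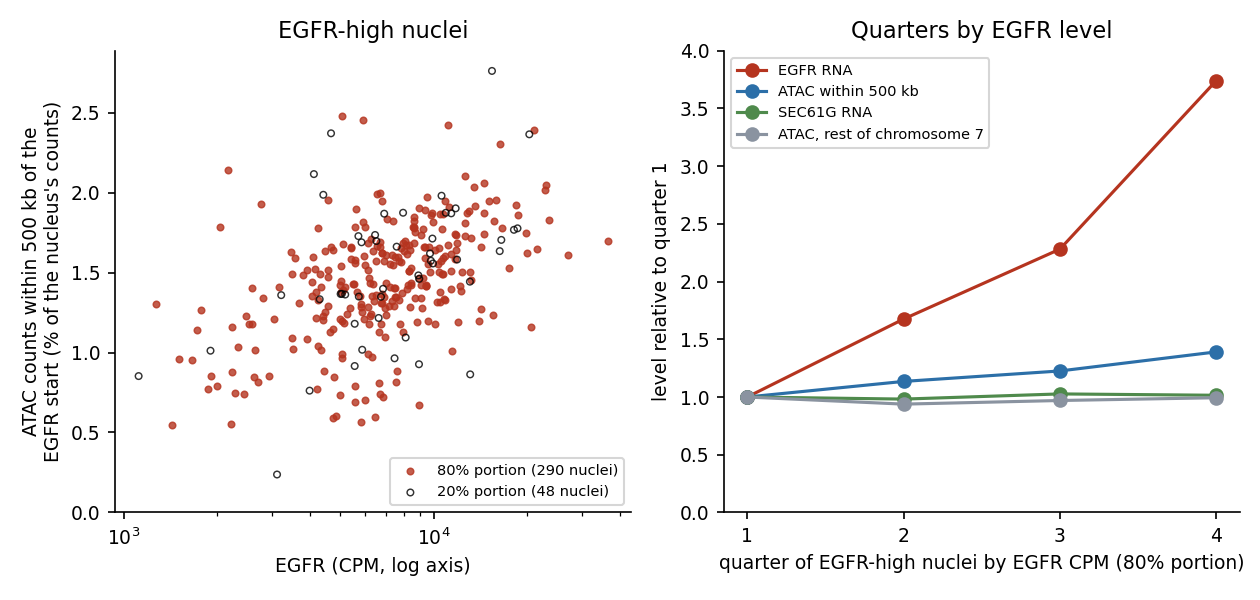
On the left, each point is an EGFR-high nucleus (filled, 80% portion; open, 20% portion) with at least 1000 ATAC counts, placed by its EGFR level (CPM, log axis) and by the percent of its ATAC counts within 500 kb of the EGFR start. On the right, 4 quantities are shown over 4 groups of 75 members in order of EGFR level, relative to the first. EGFR RNA goes from 3634 to 13595 CPM and the ATAC window from 12197 to 16966 CPM, while SEC61G RNA and the rest of chromosome 7 in ATAC stay near their first value.

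None of the other receptors of the family was called. ERBB2 was at 32.8 CPM (19.8 to 51.8 in the other panel groups), ERBB3 at 22.1 CPM (2.59 to 27.7) and ERBB4 had 3 UMIs. Among 7 ligand genes, 5 reached 20 CPM in some group and 1 was called higher, where 1.94% of all genes were. That was AREG, for amphiregulin, at 435 CPM against 15.7 to 216 CPM (2.01 times), and in the 20% portion at 483 CPM against at most 166 CPM. EREG, for epiregulin, was just under the limit at 294 CPM against at most 148 CPM (1.985 times). In the 20% portion EREG was just past it, at 299.8 CPM against at most 149.7 CPM (2.0025 times). BTC was at 18.4 CPM against at most 12.2 CPM. TGFA (18.1 CPM), HBEGF (13.5 CPM) and EGF (4.65 CPM) were inside the range of the other groups. The median log2 ratio of the tested ligands to the mean of the other groups was 0.57, beside -0.17 over all genes tested.

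Of the genes that restrain EGFR, 9 of 12 were tested and none of these 9 passed 2 times in either direction. LRIG1, which was not tested because no group reached 20 CPM, was at 1.63 CPM from 7 UMIs (5.42 to 19.02 elsewhere), and in the 20% portion at 5.14 CPM against a lowest of 5.22. ERRFI1, which binds and blocks the EGFR kinase, was at 216 CPM (39.5 to 231 elsewhere), and CBL, a ubiquitin ligase for EGFR, at 48.4 CPM (32.2 to 65.9). Of 22 adaptors and effectors, 20 were tested and none was called, with a median log2 ratio of -0.47. SHC1 (25.8 CPM against a lowest of 32.9), SOS1 (61.9 against 76.4) and SOS2 (45.1 against 58.4), which link receptors to RAS, were below every other group but by less than 2 times. STAT3 was at 109 CPM (82.7 to 177).

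Of 17 genes taken as output of the MAPK cascade, 16 were tested and none was called, with a median log2 ratio of 0.09. CCND1, for cyclin D1, was at 440 CPM (212 to 330), FOSL1, an AP-1 subunit, at 274 CPM (38.4 to 188) and EGR1 at 128 CPM (9.26 to 102), all above the other groups by less than 2 times. EGR1 was not above them in the 20% portion, at 78.8 CPM against at most 110 CPM. DUSP4 (24.9 CPM against a lowest of 33.3) and ETV5 (20.01 against 20.96) were below every other group, ETV5 not so in the 20% portion (29.1 against a lowest of 21.2), and IER3 was at 101 CPM (44.1 to 264). DUSP6, a phosphatase of ERK, was at 24.7 CPM (1.95 to 31.7). None of 13 tested genes for other receptor kinases was called (22 in the list). MET, the receptor of HGF, was at 516 CPM against at most 271 CPM (1.90 times). IGF1R was at 140 CPM (143 to 924), AXL at 18.2 CPM (30.9 to 85.3) and INSR at 14.9 CPM (22.8 to 67.4), and PDGFRA, PDGFRB and RET had no UMI in members. PDGFRA was at most 0.432 CPM in the other panel groups.

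Beyond the neighbourhood of EGFR, the genes ranked highest by ratio were mostly at low levels in the members and close to absent elsewhere. XIST and TSIX also met this rule, and their levels are not reported here. NRK, a serine/threonine kinase, was at 76.6 CPM against at most 0.542 CPM in the other panel groups, RPE65, the retinoid isomerase, at 51.2 against 0.432 CPM, and RASGRF2, an exchange factor for RAS proteins, at 73.3 against 1.198 CPM. In the 20% portion these were at 58.2, 41.1 and 85.7 CPM, again with every other group at 2.22 CPM or less. HGF, the ligand of MET, was at 20.5 CPM against at most 0.774 CPM, from 88 UMIs. NTNG1 (20.2 against 0.908 CPM), PKHD1 (27.9 against 1.52 CPM) and ERC2 (27.5 against 1.51 CPM) had a UMI in 12.7%, 23.7% and 24.7% of members. AC084116.1 was at 20.7 against 0.232 CPM, and AC011632.1 was at 108 against 4.69 CPM with a UMI in 68.0% of members.

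Some of these genes came from few members. KCNH7, a potassium channel, was at 66.1 CPM with a UMI in 13.7% of members, and at 17.1 CPM in the 20% portion. DSCAM had 122 UMIs in 8.0% of members, and KRTAP2-3 had 384 UMIs in 18.7%. The long non-coding genes AL162493.1 (37.9 CPM), AC106799.2 (36.5 CPM), NAALADL2-AS2 (46.5 CPM), LINC01980 (39.8 CPM) and AL157778.1 (76.8 CPM) had 2.80 CPM or less in every other panel group.

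In all, 126 genes (1.23%) were lower by the rule, at most 0.5 times the lowest other group, beside the 199 higher ones, of which 107 had another group at 20 CPM. TCF7L1, a transcription factor of the WNT pathway, had 1 UMI in the members, 0.233 CPM, against a lowest of 7.89 CPM. SERPINB9, the granzyme B inhibitor, was at 1.396 CPM against 12.6, KLF12, a Krüppel-like factor, at 3.03 against 24.6, CCDC144A at 5.12 against 40.3, ROBO1, the receptor of SLIT proteins, at 4.89 against 34.5, COL7A1 at 1.86 against 12.7, PRKD1 at 6.52 against 41.5, EML1 at 5.35 against 27.9, AKR1E2 at 5.58 against 29.0 and FLG-AS1 at 1.396 against 7.04 CPM, each time the lowest of the other groups.

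The values in the 20% portion, whose members were chosen by the same rule, are a description and no independent support. Of the 199 higher genes, 152 were also called higher in the 20% portion, where 229 of 10628 genes (2.15%) were called higher. Of the 126 lower genes, 43 were also called lower there, where 193 (1.82%) were called lower. The median ratio of the lower genes to the lowest other group was 0.384 in the 80% portion and 0.621 in the 20% portion, whose members had 583734 UMIs in all.

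Among markers of the lung lineage, SFTA2, a surfactant-associated gene, was at 63.3 CPM against at most 3.56 CPM and NAPSA, the aspartic protease napsin A of lung adenocarcinoma, at 72.8 CPM against at most 6.37 CPM, and these 2 of 9 tested lung genes were higher (1.94% of all genes), both at 20 CPM in the members alone. Others of the list were far below the highest group, with SLC34A2 at 3.03 CPM (2.92 to 56.0 elsewhere), TP63 at 6.05 CPM (2.80 to 82.4) and FOXA2 at 2.09 CPM (1.401 to 32.1). NKX2-1, the lung lineage factor, was at 77.3 CPM (2.68 to 56.0 elsewhere), but in the 20% portion at 66.8 CPM against a highest of 84.1 CPM. SFTPA1, SFTPA2, SFTPB, SFTPC, SFTPD, SCGB1A1 and SCGB3A2 had no UMI, and 3 counts of the 4297427 UMIs, taken as the limit for a count of 0, are 0.698 CPM (the upper end of the exact 95% interval is 0.858 CPM). SFTPB was at most 0.415 CPM in the other panel groups, under this limit, so its 0 does not set the members apart. Among epithelial genes, CLDN3, a claudin of tight junctions, was higher, again at 20 CPM in the members alone (46.3 against at most 15.2 CPM), and KRT8 (1059 against 2958 CPM) and KRT18 (2267 against 6080 CPM) were below the highest group. EPCAM was at 787 CPM (26.0 to 644), CDH1, for E-cadherin, at 202 CPM (4.93 to 187) and KRT19 at 1581 CPM (117 to 1353). VIM, for the intermediate filament of mesenchymal cells, was the 1 of 12 tested mesenchymal genes that was lower, at 665 CPM against 1385 to 4310 CPM (1.23% of all genes were lower).

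Of 15 markers of stroma, endothelium and immune cells, 3 were tested and none was called, and 6 (PTPRC, COL3A1, PDGFRB, CD3E, LYZ and DCN) were at 0 in members. In the other panel groups PTPRC was at most 0.581 CPM and COL3A1 at most 0.216 CPM. The list summed to 67.9 CPM, of which CD68 made up 45.6 CPM, against 46.6 to 297 CPM in the other groups. The 52 genes of G2 and M phase summed to 6749 CPM in the 80% portion, inside the range of 3484 to 7180 CPM, and to 4262 CPM in the 20% portion. The 1 of them called higher, a share near the 1.94% of all genes, KIF2C, was at 99.4 CPM against at most 39.99 CPM, but at 34.3 against 37.0 CPM in the 20% portion. None of the 42 S phase genes was called. Of the 13 mitochondrial genes MT-ND3 was called higher (349 against at most 172 CPM), where 1.94% of all genes were.

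Outside chromosome 7, 1 peak in an exon of KIF5A (chr12:57576477-57577328, 32.8 against 0.989 CPM) and 1 between genes (chr6:11655277-11656175, 138 against 6.17 CPM) were among the 10 with the highest ratio. The other peaks given here were chosen after their values were seen, as were the genes ADTRP, RASSF3 and TBK1. One place was at and near ADTRP on chromosome 6, where the peak chr6:11685290-11686192, between genes, was at 333 CPM against at most 18.2 CPM with a count in 71.7% of members, and ADTRP RNA was at 80.3 CPM against at most 4.84 CPM. The other was on chromosome 12, where chr12:64625210-64626137 in an intron of RASSF3 was at 460 CPM against at most 28.8 CPM, and a peak at TBK1 (chr12:64452811-64453469, over an exon) at 167 CPM against at most 10.5 CPM. Of the peaks given in this paragraph, only the one in RASSF3 had another panel group at 20 CPM. Among the peaks outside chromosome 7 ranked highest by ratio and clear of exons, the ADTRP and RASSF3 peaks had the most counts on their chromosomes, and their central 300 bases (chr6:11685591-11685890 and chr12:64625524-64625823, GRCh38, plus strand) are given with the same capitals as above.
Peak near ADTRP: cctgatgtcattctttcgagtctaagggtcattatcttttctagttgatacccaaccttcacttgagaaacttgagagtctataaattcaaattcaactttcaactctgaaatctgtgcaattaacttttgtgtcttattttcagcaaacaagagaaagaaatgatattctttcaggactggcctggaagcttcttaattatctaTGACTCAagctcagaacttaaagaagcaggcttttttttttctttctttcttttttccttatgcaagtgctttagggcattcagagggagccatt
Peak in RASSF3: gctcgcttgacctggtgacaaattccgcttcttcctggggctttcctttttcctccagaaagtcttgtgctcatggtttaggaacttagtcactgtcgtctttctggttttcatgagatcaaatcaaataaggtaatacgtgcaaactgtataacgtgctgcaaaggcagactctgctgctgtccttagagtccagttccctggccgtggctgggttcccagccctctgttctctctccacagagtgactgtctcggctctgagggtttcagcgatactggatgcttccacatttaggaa

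The first of these holds TGACTCA once and the second none of the 5 motifs. Over the 501 higher peaks away from EGFR, 39.5% of central windows held TGACTCA on either strand, against 24.3% of all windows tested, but 407 of the 501 had reached 20 CPM in the members alone. Of the 94 with another group at 20 CPM, 22.3% held it, against 23.4% of all windows tested that way, so the higher share lay with the peaks that only the members had brought in. All 1258 windows of that kind, higher or not, held it in 40.9%. GGGCGG, common at promoters, was in 56.4% of the 94 and 49.05% of all windows tested with another group at 20 CPM, and in 19.2% of the 407. The shares of GGAATG were 15.96% of the 94 against 18.3%, and those of TGTTTAC 2.13% against 3.69%. AACCGGTT was in none of the 501 and in 0.160% of all windows tested.

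By ATAC alone the members lay together. In components 2 to 30 of the TF-IDF weighted peak counts, 93.03% of the 20 nearest neighbours of a member were members on average, whereas members made up 4.58% of nuclei and 0.678% of the neighbours of other nuclei. The neighbours were at least 90% members for 258 of the 300. With every peak of chromosome 7 left out the mean was 92.6%. The 7 members with under 50% had a median of 652 ATAC counts, against 9982 in the rest.

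Over whole chromosomes, chromosome 7 took 7.19% of the members' ATAC counts against a mean of 5.59% in the other panel groups, a ratio of 0.36 on the log2 scale, and 6.43% against 5.17% of UMIs (0.32). Both shares were below the highest other group, at 7.46% and 6.44%. Without the 2 Mb on each side of EGFR the log2 ratios were 0.00 for ATAC and -0.10 for RNA. Chromosomes 8, 21 and X had shares above every other panel group in ATAC and RNA of both portions. The log2 ratios in the 80% portion were 0.20 and 0.29 for chromosome 8, 0.25 and 0.28 for chromosome 21 and 0.24 and 0.23 for X. Chromosome 12 was above all in ATAC (0.34) but not in RNA (0.17) of the 80% portion, and above all in both readouts of the 20% portion. Chromosomes 10, 15, 16 and 19 were below every other group in both readouts of both portions, with the lowest values at chromosome 19 in ATAC (-0.47) and chromosome 10 in RNA (-0.42). Neither DNA copies nor accessibility was measured apart from these counts.

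**Figure D5:**
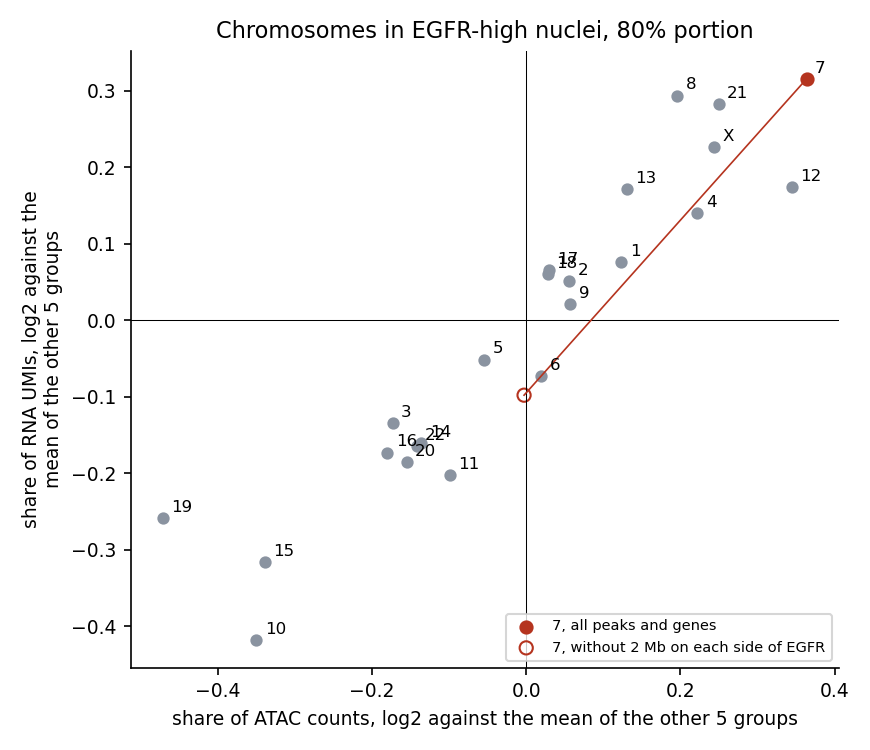
Each point is a chromosome, placed by its share of ATAC counts (x axis) and of RNA UMIs (y axis) in EGFR-high nuclei of the 80% portion, on the log2 scale against the mean of the other 5 panel groups. Chromosomes 8, 21, X and 12, above every other group in ATAC, lie to the right, as do others such as chromosome 4 (0.22). Chromosomes 10, 15, 16 and 19, below every other group, lie to the left, as do others such as chromosome 3 (-0.17). Chromosome 7 (red) moves from 0.36 and 0.32 to 0.00 and -0.10 when 2 Mb on each side of EGFR are left out.

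Higher genes were 8.08% of the tested genes of chromosome 21, 7.73% of chromosome 8, 4.05% of chromosome 7 and 3.66% of chromosome 1, and higher peaks were 14.0% of the tested peaks of chromosome 8, 10.7% of chromosome 21, 6.49% of chromosome 7 and 5.61% of chromosome 12, beside 1.94% of all genes and 2.47% of all peaks. With another group at 20 CPM, higher genes were 5.32% of chromosome 21, 6.33% of chromosome 8, 2.21% of chromosome 1 and 2.18% of chromosome 7 (1.06% of all), and higher peaks were 5.81% of chromosome 8, 3.61% of chromosome 21, 1.78% of chromosome 7 and 1.17% of chromosome 12 (0.523% of all). The 24 such peaks of chromosome 7 were the 24 within 2 Mb of EGFR. In windows of 5 Mb, after those at EGFR the highest ratios of ATAC counts to the highest other group were from 15 Mb on chromosome 21 (1665 against 501 CPM, 3.32 times) and from 60 Mb on chromosome 12 (3992 against 1258 CPM, 3.17 times). Of 133 higher genes with peaks at their start, 54 were also called higher in ATAC there, against 93 of 9070 genes (1.03%), and 103 (77.4%) were above every other group against 11.4%. With the 2 Mb around EGFR left out it was 44 of 123. Among the genes with another group at 20 CPM in ATAC it was 44 of 117, against 70 of 8992 (0.778%). Of 94 lower genes, 21 were called lower in ATAC and 1 higher, against 62 of 9070 genes (0.684%) called lower.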

How the data were processed

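Nuclei of 5 mixed cell lines gave RNA and ATAC counts under 1 barcode, with 1 library of each kind per portion. The authors deposited whole-number counts per gene and per peak, made with Cell Ranger ARC 2.0.0 per the labels' processing notes, on hg38 (GRCh38), with barcodes already called as cells and peaks called in each portion's matrix. Some details were not given in the sources used here: the gene annotation, the use of strand, and whether ATAC counts are fragments or ends. The matrix of both portions together was not used, and neither were the demuxlet labels. No columns (0) were left without a sample.

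All barcodes were kept. Counts were summed over the nuclei of each group and divided by the group's total (CPM). A feature was tested where a panel group reached 20 CPM, called higher at 2 times the highest other panel group and lower at 0.5 times the lowest, with fewer than 3 counts set to 3. The genes that could be named were the 20 with the highest ratio among higher genes with at least 50 UMIs in members, the 10 with the lowest, any gene of the lists and those starting within 2 Mb of EGFR, and the peaks that could be named were the 10 with the highest ratio and those over EGFR or at its start with the most counts. Other names were chosen after their values were seen, and levels of XIST and TSIX are not reported. Some other listed genes are not reported here. Motifs were chosen from knowledge of the factors. Intervals printed with the results are exact (Poisson or binomial) in scipy 1.17.1. Scrublet (scanpy 1.11.5, expected rate 0.06) gave the doublet calls, and neighbours were found with scikit-learn 1.9.0 on Python 3.11.15. Of the gene IDs, 99.4% were in GENCODE v44, 99.9% of these at the same place, and peaks were placed with it. Sequences came from hg38 and RefSeq. The members, panels and gene lists were chosen with earlier results of these data known. The rules were tested on simulated data. Alternatives covered the rule, doublets, depth, shared barcodes, windows, thresholds and components.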

Additional observations from a re-analysis of the deposited data

Results flagged for a closer look

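Long-read counts per barcode, which no comparison above used, were found for 48 of the 49 EGFR-high nuclei of the 20% portion. Their median was 25302.5, against 28250 over all nuclei with long reads, and the ratio of long-read counts to UMIs was 2.61 against 2.62. They are given because they are a signal outside the main measurement. Whether they count reads or molecules was not stated.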

How the results depend on the processing

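Of 56 values under alternatives, 42 stayed within the 95% interval of the main value or, for counts, within 1.5 times, and 14 moved. For rho and for the share of member neighbours, that interval treated the member nuclei of 1 library as replicates. It served only to sort these values as stayed or moved and measures no error across libraries. With doublet calls removed, EGFR was at 7991 CPM and the mitochondrial share at 1.60%, and 207 genes were higher and 184 lower against 199 and 126. In the members of the 20% portion EGFR was at 8824 CPM, the mitochondrial share 1.67% and the chromosome 7 share of ATAC counts 1.26 times the mean of the other groups, against 7692 CPM, 1.56% and 1.29 times. With peaks within 2 Mb of EGFR left out, the chromosome 7 share was 0.998 times that mean. The ATAC ratio of 15.1 was 12.99 in a window of 1 Mb and 6.74 with each peak counted once per nucleus. The 325 genes called in either direction became 1505 (581 higher, 924 lower) against all other nuclei together, 201 at 50 CPM and 96 (74 higher, 22 lower) at 4-fold, and the 1062 peaks became 234 at 50 CPM and 306 at 4-fold. With 20 CPM asked of a group other than the members, an alternative chosen after seeing the data, the peaks became 592 (118 higher, 474 lower against 588 and 474), the genes 233 (107 higher, 126 lower against 199 and 126) and the higher genes near EGFR 8. The TGACTCA share of higher peaks away from EGFR, 39.5%, became 22.3% in the same way, against 23.4% of all peaks. The number of EGFR-high nuclei ran from 273 to 438 and stayed within 1.5 times. With the 95th percentile as scale, the 438 held all 300, and the 138 added had 3299 CPM in the ATAC window. The fold rule has no error across libraries. No paired analysis was possible because each portion holds 1 library of each kind and the result comes from no test.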

Other observations

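Some nuclei outside the rule carried the ATAC signal of the EGFR region. The 20 nuclei that passed the EGFR value but not the ratio had 9158 CPM in the window within 500 kb and 3874 CPM of EGFR, a median of 24457 UMIs against 11938.5 in the members, and 15 of them were called doublets. Their second panel was ALDH1A1 and TM4SF4 in 6, TAGLN and MGP in 5, MEG3 and MEG8 in 4, LINC02055 and AC069277.1 in 3 and AL356804.1 and AL683807.1 in 2. The 108 nuclei with EGFR as first panel but under the lowest value had 451 CPM of EGFR and 1385 CPM in the window, close to the 473 and 1142 CPM of all nuclei of no panel. Of the nuclei of no panel, 27 had at least 90% members among their 20 nearest neighbours in ATAC.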
